A study of Mus musculus with 4 samples.

Results

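Polycomb repressive complex 1 (PRC1) is the chromatin complex that attaches ubiquitin to histone H2A. The genes of 10 of its subunits were followed through the Myc and Max peak lists of mouse embryonic stem cells (ESCs): Ring1, Rnf2, Bmi1, Pcgf2, Cbx2, Cbx7, Phc1, Pcgf1, Pcgf6 and Rybp. They were chosen by name and not by a cut on any measured value, but with earlier results of these data known. All 10 were found among the 37310 genes, 22380 of them protein-coding, of the GENCODE M1 annotation of the mm9 genome. The study mapped where Myc and its dimerization partner Max sit in E14 mouse ESCs, by chromatin immunoprecipitation and sequencing (ChIP-seq). Bio-Myc was precipitated with streptavidin beads from a single stable E14 clone in which biotin-tagged Myc was driven by the ubiquitous EF1α promoter together with the biotin ligase BirA, so its peaks describe an added, tagged Myc in 1 clone. Max was precipitated with an antibody from parental wild type E14 cells. Its background was an IgG ChIP from the same parental cells, and that of Bio-Myc was a mock streptavidin ChIP whose cells the labels give as parental wild type and the methods as BirA-expressing cells without tagged Myc. These controls entered the peak calls, and their own files were not used here.

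The catalytic core of every PRC1 complex is RING1 or RNF2, the E3 ligases that ubiquitinate histone H2A on lysine 119, paired with a PCGF ring finger protein. Canonical complexes carry PCGF2 or BMI1, a CBX chromodomain protein that reads H3K27 trimethylation, and a polyhomeotic (PHC) subunit. In variant complexes RYBP or its paralogue YAF2 takes the place of CBX, and the PCGF protein defines the complex: PCGF1 for PRC1.1, PCGF3 for PRC1.3, PCGF5 for PRC1.5 and PCGF6 for PRC1.6, which holds Max itself together with the Max partner MGA. Myc-Max dimers bind the E-Box CACGTG.

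Each list came from 1 library, so the spread between cultures is unknown and no p-value is given. The Bio-Myc list held 3962 peaks and the Max list 11570, and the number of reads behind them is unknown from these files. The score of a peak is −10 times the log10 of its MACS p-value, and the lowest possible score was 80. The scores of both lists depend on the depth of their own library, so levels are read by rank within a list. Genes called bound had a peak within 1 kb of any of their transcription start sites (TSSs).

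Bio-Myc peaks lay at 4 of the 10 genes, namely Ring1, Cbx7, Pcgf6 and Rybp, where 14.6% of all protein-coding genes had such a peak. Max peaks lay at 7, namely those 4 with Pcgf2, Cbx2 and Phc1, where the share over protein-coding genes was 34.8%. At each of the 4 genes with Bio-Myc, and under all 5 of their Bio-Myc peaks within 1 kb, a Max peak overlapped, an arrangement found at 12.4% of protein-coding genes. Max without Bio-Myc was found at 3 genes (22.1% over protein-coding genes), and Rnf2, Bmi1 and Pcgf1 had neither (63.2%). Of the 7 genes with Max, 4 had Bio-Myc, as did 36.4% of protein-coding genes with Max, and all 4 genes with Bio-Myc had Max, as did 86.5% of those with Bio-Myc. Widening the window to 5 kb left Bio-Myc at the same 4 genes (16.6% over protein-coding genes) and added Max at Bmi1, making 8 (38.6%). CpG-rich promoters were found at 8 of the 10 genes by the sequence around their outermost TSS (CpG observed/expected of at least 0.6 and GC of at least 50% over 500 bp on either side), and not at Cbx7 and Phc1. Of these 8, Bio-Myc was at 3 and Max at 5, or 37.5% and 62.5%, beside 27.5% and 60.6% of the 9879 protein-coding genes with promoters of that kind. For Max these 8 genes thus stood near the level of CpG-rich promoters in general. For Bio-Myc, 8 genes are too few to set the 3 apart from that level, and 1 of the 3, Ring1, was absent at a p-value limit of 1e-09. At a stricter p-value limit of 1e-20, Bio-Myc was left at Rybp alone and Max at Ring1, Pcgf2, Pcgf6 and Rybp.

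The E-Boxes at these genes are printed first, since they tell apart a peak that lies over a CACGTG from one that does not. Whole peaks within 5 kb of a TSS held 8 CACGTG sites in 6 of the 10 genes, 3 in introns, 5 upstream and 0 in exons, and only 2 of these sites, at Cbx7 and Rybp, lay under both a Bio-Myc and a Max peak. The lines below give the 5 sites within peaks that the descriptions of the genes turn on, a sixth under a peak at the promoter of the gene next to Bmi1, and a site in the promoter of Bmi1 that no peak covered. Each runs 5′ to 3′ along the strand of its gene in mm9, 30 bases long, with the E-Box in capitals.
Rybp, 278 bp upstream of its TSS, chr6:100237701-100237730: cgcgggcacggcCACGTGctccccgccggg
Cbx7, intron, 4723 bp downstream of an internal TSS, chr15:79758230-79758259: cggggctacggtCACGTGgtcgtgtttatc
Cbx7, intron, 862 bp downstream of the same TSS, chr15:79762091-79762120: gcgatctttgtgCACGTGcttgctgatggg
Pcgf2, intron, 132 bp upstream of an internal TSS, chr11:97561082-97561111: aaggaatgaggtCACGTGggtgagtagtgg
Phc1, 68 bp upstream of its outermost TSS, chr6:122290635-122290664: ttgtgattctttCACGTGtgcgtgtgactt
Bmi1, 4586 bp upstream of its TSS, chr2:18594042-18594071: cgcgccccgagtCACGTGgtgtgcgtgtcg
Bmi1, 210 bp upstream of its TSS, no peak, chr2:18598418-18598447: gaatgaggggagCACGTGacccggcggggg

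The pair of catalytic subunits differed from each other. Ring1 (ENSMUSG00000024325.8, chr17:34157737-34161625, minus strand) had a Bio-Myc peak of score 83.8 over its start, at chr17:34161133-34162109, which was rank 3754 of 3962. The Max peak at the same place, chr17:34161148-34162118, had a score of 307 and rank 2361 of 11570. The peaks shared 962 bp, covered 2 of the 3 annotated TSSs and spanned an exon with UTR and coding sequence, with no CACGTG and 1 CACGCG. Ring1 thus lay near the bottom of the Bio-Myc list, where 5.28% of peaks scored as low or lower, and in the upper part of the Max list, above or level with 79.6% of peaks. The small RNA gene Mir219-1 also starts within 1 kb of these peaks, so they cannot be assigned to Ring1 alone, and the Bio-Myc peak was absent at a p-value limit of 1e-09. A further Max peak of score 336 lay 2080 bp upstream of Ring1, within 1 kb of a start of the neighbouring gene H2-Ke6.

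Rnf2 (ENSMUSG00000026484.7, chr1:153316536-153347953, minus strand), which encodes RING1B, had no peak of either list within 5 kb of its only TSS. The nearest Max peak lay 69.7 kb upstream at Fam129a and the nearest Bio-Myc peak 155 kb downstream at Ivns1abp. Both distances were close to the middle of the range over protein-coding genes without a peak within 1 kb (medians of 84.1 kb for Max and 167 kb for Bio-Myc). Its promoter was CpG-rich, with a CpG observed/expected of 0.90 and 73.2% GC, so the promoters of both ligases were of the same kind in base composition.

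Among the canonical subunits, neither PCGF partner had a Bio-Myc peak within 5 kb, and Pcgf2 but not Bmi1 had Max within 1 kb. Pcgf2 (ENSMUSG00000018537.9, chr11:97550137-97561811, minus strand), which encodes MEL18, had a Max peak of score 319 and rank 2201 over its outermost TSS, at chr11:97561037-97562080. A weaker Max peak of score 149 lay at chr11:97559954-97560676, 219 bp downstream of an internal TSS. The stronger peak held the intronic E-Box printed above, 462 bp from its centre. Pcgf2 was thus level with Ring1 in the Max list, but its nearest Bio-Myc peak lay 29.4 kb away at Mllt6. A further Max peak, of score 357, lay 2257 bp upstream, within 1 kb of a start of Psmb3, with an E-Box 67 bp from its centre.

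Bmi1 (ENSMUSG00000026739.7, chr2:18598645-18608256, plus strand) had no peak within 1 kb of any of its 7 TSSs. A Max peak of score 145 lay 4114 bp upstream, at chr2:18593660-18594531, and this peak was within 1 kb of the start of Commd3, the gene on that side. Its E-Box lay 39 bp from the peak centre, while the E-Box in the promoter of Bmi1 itself, 210 bp upstream of the TSS, was under no peak. The nearest Bio-Myc peak was 284 kb away, at Dnajc1. The Max peak counted for Bmi1 in the wider window therefore sat at another gene's promoter.

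The chromodomain subunits Cbx2 and Cbx7, which bring canonical PRC1 to trimethylated H3K27, also differed. Cbx2 (ENSMUSG00000025577.7, chr11:118884276-118892584, plus strand) had a Max peak of score 148 and rank 6324 at chr11:118884360-118885012, between its 2 TSSs, with no CACGTG and 1 CACGCG. Its nearest Bio-Myc peak lay 215 kb downstream at Ccdc40. Cbx7 (ENSMUSG00000053411.9, chr15:79746237-79801549, minus strand), the CBX protein characteristic of canonical PRC1 in undifferentiated ESCs, had more Bio-Myc peaks than any other of the 10 genes.

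At the outermost TSS of Cbx7 the Bio-Myc peak, chr15:79800695-79801964, had a score of 177 and rank 1198, and the Max peak inside it, chr15:79801063-79801625, a score of 87.0 and rank 10672. Neither held a CACGTG. This Max peak was near the limit of the list and absent at a p-value limit of 1e-09. The ratio of Max to Bio-Myc score was 0.493 there, below all but 3.22% of the 2487 overlapping peak pairs at protein-coding promoters, whose median was 1.63. By raw score this was the only one of the 10 genes' pairs with a lower Max than Bio-Myc value. By place within each list, Max was also lower than Bio-Myc at Rybp (81.9% against 86.1% of peaks at or below). The same held narrowly at the internal TSSs of Cbx7 described next (49.8% against 51.1%). At a group of internal TSSs 38467 bp downstream, the Bio-Myc peak chr15:79761809-79763536 scored 132 and the Max peak chr15:79762543-79763347 scored 160. The sequence around those TSSs was CpG-rich (CpG observed/expected of 0.74 and 61.1% GC, against 0.46 and 51.2% at the outermost TSS), and the E-Box there lay under the Bio-Myc peak but outside the narrower Max peak, 567 bp from the Bio-Myc centre. A further pair in the intron beyond, chr15:79758187-79758602 for Bio-Myc and chr15:79758061-79758818 for Max, scored 84.1 and 216 and held the other printed Cbx7 E-Box, 150 bp and 195 bp from the centres. Cbx7 was the only one of the 10 genes with 2 Bio-Myc peaks within 1 kb of a TSS (3.51% of bound protein-coding genes), and 3 of the 7 genes with Max, namely Cbx7, Pcgf2 and Phc1, had 2 Max peaks (8.96%). These shares were not matched for the number of TSSs, which was 6 at Cbx7, 6 at Pcgf2 and 15 at Phc1, against a protein-coding median of 2. Bio-Myc and Max thus overlapped at 3 places in Cbx7, with the Bio-Myc score falling and the Max score increasing from the outermost TSS towards the gene body. At a p-value limit of 1e-09, only the pair at the internal TSSs kept both peaks.

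Phc1 (ENSMUSG00000040669.7, chr6:122267749-122290579, minus strand), the polyhomeotic subunit whose SAM domain polymerizes, had 2 Max peaks, both near the limit of the list. The peak at chr6:122290347-122290995 scored 86.8, rank 10705, and that at chr6:122289091-122289660 scored 80.5, rank 11498 of 11570. Low as it was, the first of these lay almost centred on an E-Box, 21.5 bp from its midpoint. The weaker peak covered 3 internal TSSs. The sequence around them was CpG-rich, unlike that at the outermost TSS (CpG observed/expected of 0.87 to 0.89 and 70% to 70.7% GC). In the Bio-Myc list the closest peak to Phc1, of score 83.5, lay 25.2 kb upstream.

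**Figure D1:**
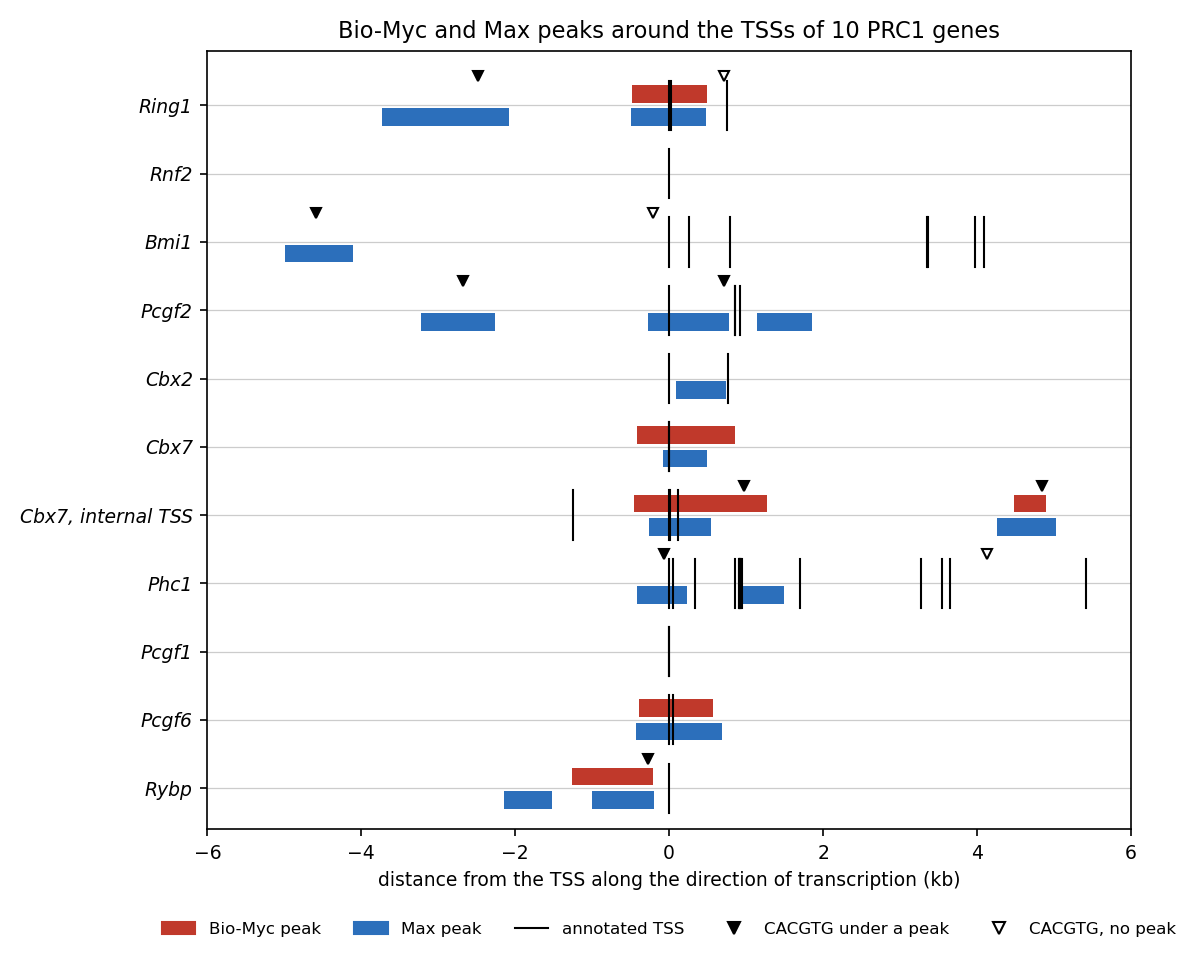
Bio-Myc peaks (red bars) and Max peaks (blue bars) around the 10 PRC1 genes, 1 row a gene, against the distance in kb from the outermost TSS along the direction of transcription, with Cbx7 drawn again around its internal TSSs. Vertical lines are annotated TSSs, filled triangles CACGTG sites under a peak and open triangles CACGTG sites within 1 kb of a TSS under no peak. Rnf2 and Pcgf1 have no peak in the drawn window, and the site 210 bp upstream of Bmi1 has none over it.

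Of the variant subunits, Pcgf6 and Rybp were bound in both lists and Pcgf1 in neither. Pcgf6 (ENSMUSG00000025050.6, chr19:47108109-47125380, minus strand), the ring finger protein that defines PRC1.6, had a Bio-Myc peak of score 155 and rank 1512 at chr19:47124805-47125767. Its Max peak, chr19:47124695-47125813, had a score of 317 and rank 2226. Both covered its 2 TSSs, and the whole Bio-Myc peak lay inside the Max peak. Neither held CACGTG or CACGCG, and each held 1 CACATG.

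Rybp (ENSMUSG00000072872.2, chr6:100178560-100237435, minus strand), the subunit that excludes CBX proteins from the complex, had the highest Bio-Myc score of the 10 genes. Its Bio-Myc peak, chr6:100237651-100238693, scored 266 and was rank 553, and its Max peak, chr6:100237635-100238439, scored 327 and was rank 2098. They began 216 bp and 200 bp upstream of its only TSS and did not cover it. The E-Box shared by both lay off their centres, by 456 bp in the Bio-Myc peak and 322 bp in the Max peak, farther than in 92.2% and 88.8% of peaks with an E-Box. A weaker Max peak of score 91.9 lay 1520 bp upstream. Rybp was thus high in both lists, with the E-Box at the edge of the peaks that faces the gene.

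Pcgf1 (ENSMUSG00000069678.3, chr6:83028380-83030841, plus strand), the ring finger protein of PRC1.1, had no peak within 5 kb. Its nearest Max peak lay 22.7 kb downstream at Ccdc142 and its nearest Bio-Myc peak 238 kb downstream at Mthfd2.

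**Figure D2:**
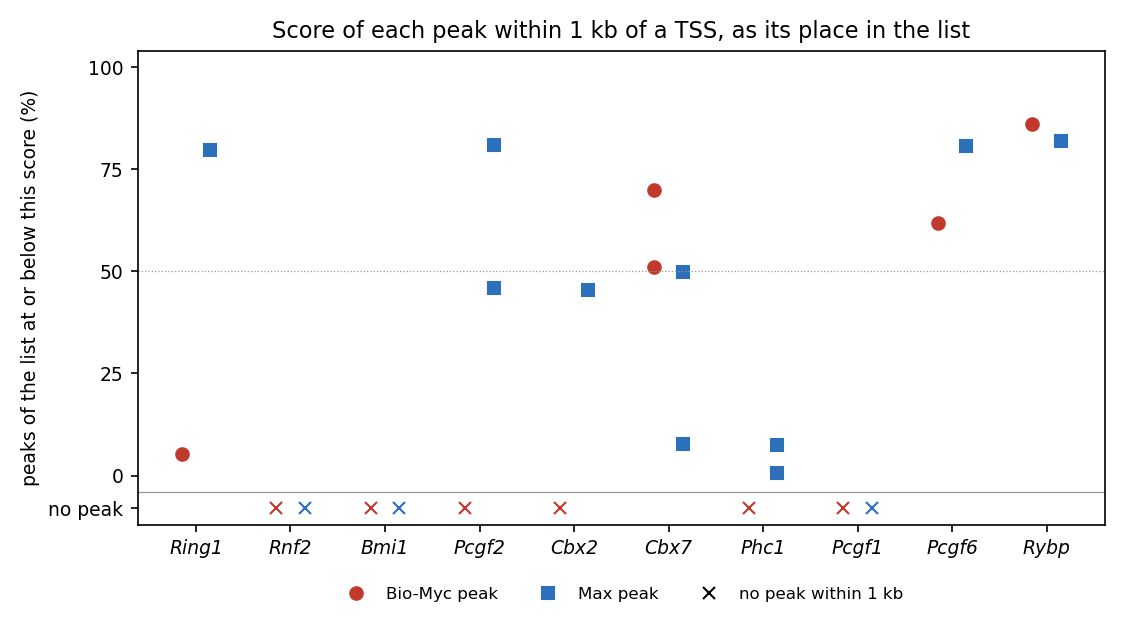
Place in its list of every peak within 1 kb of a TSS of the 10 PRC1 genes, as the percentage of peaks of that list with the same or a lower score, for Bio-Myc (red circles) and Max (blue squares), with crosses for genes without a peak and a dotted line at 50%. Rybp is high in both lists (86.1% and 81.9%), Ring1 is low for Bio-Myc (5.28%) and high for Max (79.6%), and both Max peaks of Phc1 are near the bottom (7.48% and 0.631%).

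In the Max list the bound genes fell into a higher and a lower group by their strongest peak within 1 kb. Ring1, Pcgf6, Pcgf2 and Rybp lay between 307 and 327, close to the upper quartile of 323 over the 7788 bound protein-coding genes. Cbx7, Cbx2 and Phc1 lay at 160, 148 and 86.8, below the median of 196. At nearly equal Max scores the Bio-Myc scores spread widely: 266 for Rybp, 155 for Pcgf6, 83.8 for Ring1 and no peak for Pcgf2. Over the 559 protein-coding genes whose strongest Max score was between 290 and 340, a band chosen after these values were seen, 282 (50.4%) had a Bio-Myc peak, and its score ran from 80.2 to 817 with quartiles of 112 and 234. The spread among the 4 PRC1 genes was within that of other genes with similar Max scores. Relative to Bio-Myc, the Max score was high at Ring1 (3.66, above 87.4% of promoter pairs) and near the middle at Pcgf6 (2.05) and Rybp (1.23).

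**Figure D3:**
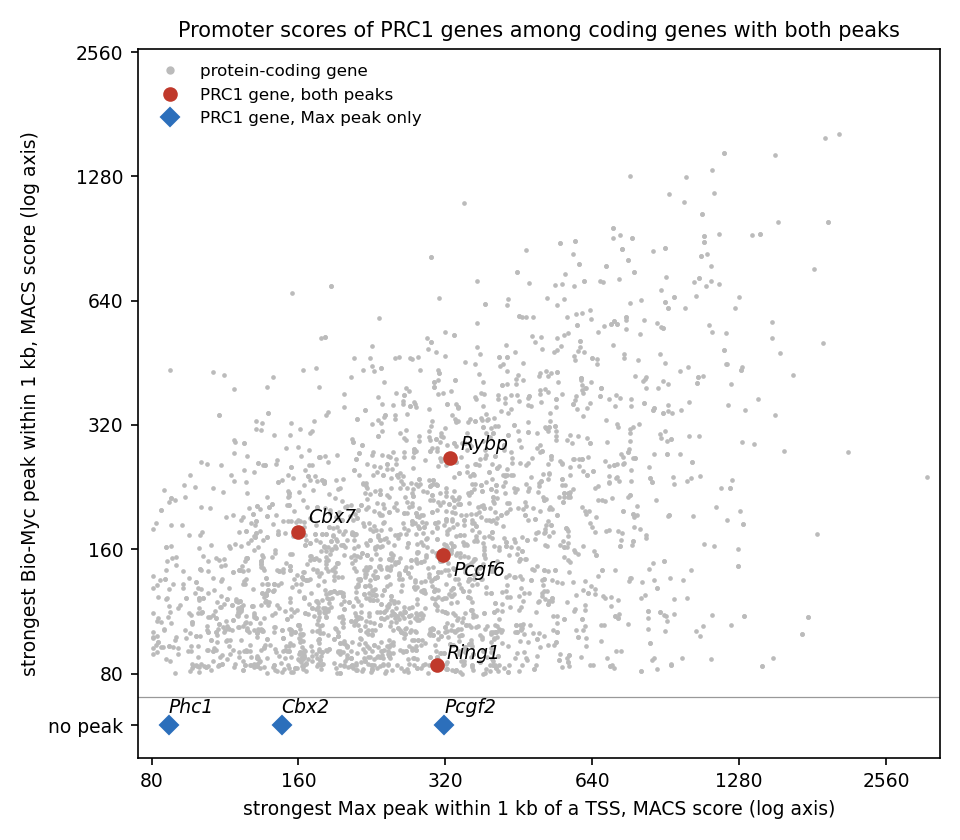
Strongest Bio-Myc score against strongest Max score within 1 kb of a TSS, both on log axes, for protein-coding genes with both peaks (grey) and for the PRC1 genes with both peaks (red), with genes that have a Max peak only (blue) in the strip below. Ring1, Pcgf6 and Rybp stand at nearly the same Max score (307 to 327) and at different Bio-Myc scores (83.8 to 266), Pcgf2 has a Max score of 319 and no Bio-Myc peak, and Cbx7 stands to the left of them at 160.

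The E-Box was no common feature of these peaks. Under a Bio-Myc peak within 1 kb of a TSS it was found in 2 of the 4 bound genes (Cbx7 and Rybp), where 49.7% of bound protein-coding genes had it. Under a Max peak it was found in 3 of the 7 (Pcgf2, Phc1 and Rybp), beside 38.6%. Ring1, Pcgf6 and Cbx2 had bound promoters without it. Within the central 200 bp of a peak only the Phc1 site remained, a position that 19.6% of peaks in either list had. In the other direction, CACGTG was present within 1 kb of the outermost TSS of 5 of the 10 genes (Ring1, Bmi1, Pcgf2, Phc1 and Rybp), compared with 27.8% of protein-coding genes, and at Ring1 and Bmi1 these sites lay under no peak. CACGTG is its own reverse complement, so a single search covers both strands, and a match describes these letters only.

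The remaining PRC1 genes were read from a list of 30 further subunits. Bio-Myc peaks lay at 8 of these and Max peaks at 17, so over all 40 PRC1 genes the numbers were 12 and 24. The 8 included the casein kinase genes Csnk2a1 (score 123) and Csnk2b (score 150), which are outside the groups described below. The Csnk2b peaks also lay within 1 kb of a start of Gpank1. Csnk2a2, the remaining casein kinase gene listed, had no peak of either list within 5 kb. The shares of the 30, 26.7% and 56.7%, were above the 14.6% and 34.8% of protein-coding genes and close to the 27.5% and 60.6% of those with CpG-rich promoters, which 26 of the 30 had. Of the 9 genes listed for PRC1.6, 8 had a Max peak and 6 also a Bio-Myc peak, namely Pcgf6, L3mbtl2 (a reader of methylated histones), Mga (the Max partner), Tfdp1 (the dimerization partner of E2F proteins), Cbx3 (HP1 gamma) and Wdr5 (a scaffold shared with other complexes). E2f6, the E2F repressor of the complex, and the deacetylase gene Hdac2 had Max only, and Hdac1 had neither. These shares, 88.9% for Max and 66.7% for Bio-Myc, stand beside 60.6% and 27.5% of CpG-rich promoters, and with so few genes they are a description only. Some of these subunits also serve outside PRC1. The lists for single variant complexes leave out Ring1, Rnf2, Rybp and Yaf2, which are shared between complexes.

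Of the 6 genes listed for PRC1.1, 0 had a Bio-Myc peak, beside 14.6% of protein-coding genes and 27.5% of those with CpG-rich promoters. That list does not hold the shared subunits Ring1 and Rybp, which both had a Bio-Myc peak. In so small a group a count of 0 says little. Max lay at 3 of them, Kdm2b (its CpG-binding subunit), Usp7 (a deubiquitinase) and Skp1a, and Pcgf1, Bcor and Bcorl1 had no peak within 5 kb. That Max share, 50%, lay between the 34.8% of protein-coding genes and the 60.6% of CpG-rich promoters. The Max peaks of Kdm2b and Usp7 lay at internal TSSs, and counting only the outermost TSS left Max at Skp1a alone. Of the canonical subunits, 7 of 12 had Max and 2 had Bio-Myc (Cbx7 and Phc3). The Max share, 58.3%, was above the 34.8% of protein-coding genes and near the 60.6% of CpG-rich promoters. The Bio-Myc share, 16.7%, was near the 14.6% of protein-coding genes and below the 27.5% of CpG-rich promoters. The ring finger genes Pcgf3 and Pcgf5 and the Rybp paralogue Yaf2 had no peak of either list within 5 kb, so Pcgf6 was the only PCGF gene with Bio-Myc. These groups were not tested against each other, and each is small.

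The highest scores among the PRC1 genes listed were also at PRC1.6 genes, but scores within PRC1.6 ranged widely. Max scores were 1601 at Hdac2, 1281 at Tfdp1, 964 at E2f6, 904 at Mga and 719 at Cbx3, and the highest outside PRC1.6 was 710 at Skp1a. Tfdp1 is on chromosome 8, which held 1357 of the 11570 Max peaks and 214 of the 3962 Bio-Myc peaks, and the part of this unequal number in the Tfdp1 scores was not tested. Bio-Myc scores were 654 at Tfdp1 and 563 at Cbx3, above that of Rybp. The remaining scores in PRC1.6 were lower. Max scored 317 at Pcgf6, 256 at Wdr5 and 130 at L3mbtl2, where the median over bound protein-coding genes was 196. Bio-Myc scored 173 at L3mbtl2, 155 at Pcgf6, 119 at Wdr5 and 101 at Mga, where that median was 143. The Cbx3 peaks are shared with the start of Hnrnpa2b1 and cannot be assigned to either gene. An E-Box lay under a Max peak within 1 kb of the TSS of 7 of the 9 PRC1.6 genes (7 of the 8 with Max, beside 38.6% of protein-coding genes with Max), and Pcgf6 was the bound gene of that complex without it. At Mga it lay under a second, intronic Max peak of score 103, and the peak of score 904 held none. The 38.6% was not matched for Max score or number of peaks.

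**Figure D4:**
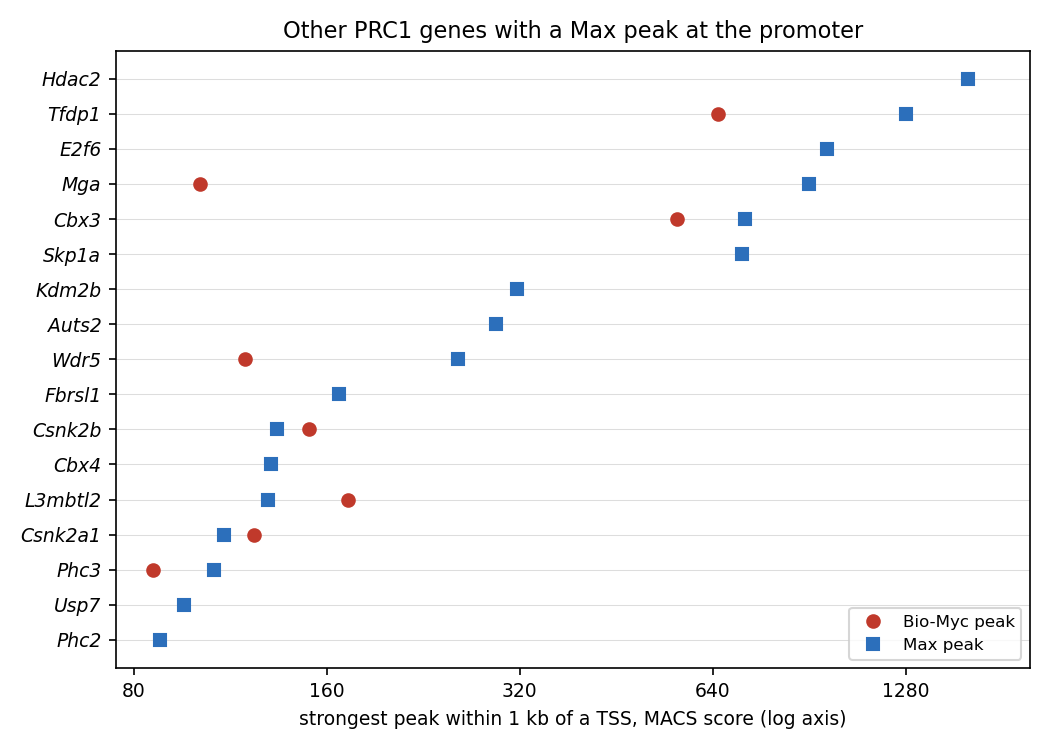
Strongest Bio-Myc (red circles) and Max (blue squares) score within 1 kb of a TSS, on a log axis, for the 17 further PRC1 genes with a Max peak, ordered by their Max score. Hdac2 (1601) and Tfdp1 (1281) have the highest Max scores, and 8 of the 17 also have a Bio-Myc peak.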

How the data were processed

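Bio-Myc and Max ChIP-seq peak lists were used, 1 library each. The authors kept reads that Bowtie 0.12.7 placed at a single mm9 position with no more than 2 mismatches, merged duplicates, and ran MACS 1.4.1 against the mock or IgG ChIP, keeping peaks of p-value 1e-08 or lower. The deposited score is −10 times the log10 of the MACS p-value. Unique mapping omits repeats, and a fixed p-value lets peak numbers depend on read depth, which is unknown here. BED starts were shifted to 1-based positions. TSSs were those of all transcripts in GENCODE M1 (NCBIM37, the assembly of mm9). Overlap was at least 1 bp. Motifs were counted on both strands under whole peaks. Every one of the 10 genes was named, with the other subunits from a written list. These genes and lists were chosen with earlier results of these data known, and the CpG-rich class, the Max score band and the grouping of the further subunits by complex were used after values were seen. Scripts (Python 3.11.15, pysam 0.24.0, matplotlib 3.10.9, samtools 1.23.1) were tested on simulated data, where 5 of 5 steps were exact. Stricter p-values, other windows, equal peak numbers, central parts of peaks and other motifs were tried.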

Additional observations from a re-analysis of the deposited data

How the results depend on the processing

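Of 108 values recomputed under other settings, 84 stayed within 1.5 times the reported one. At a p-value of 1e-15 or lower, 5 of the 10 genes had Max within 5 kb, 2 had overlapping peaks (Pcgf6 and Rybp), 1 had CACGTG under Bio-Myc, and 4 and 10 of the further subunits had Bio-Myc and Max. At 1e-20 these were 5, 1, 1, 2 and 9, with Bio-Myc left at 1 gene (Rybp) within 1 kb and within 5 kb, both peaks at 1 and Max within 1 kb at 4. With as many Max as Bio-Myc peaks (scores of at least 217), Max was at 4 genes within 1 kb and within 5 kb, and at 9 of the further subunits. CACGTG lay under Bio-Myc at 1 gene when the TSS itself had to be covered (Cbx7) or only the outermost TSS counted (Rybp), and at 0 in the central 500 bp or 200 bp, where it lay under Max at 1 (Phc1). CACGTG or CACGCG lay under Max at 6. With the outermost TSS only, Max was at 15 of the further subunits, without Kdm2b and Usp7. These settings remove or add peaks and sites by construction. The Bio-Myc peak of Ring1 and the Max peaks of Phc1 were absent at 1e-09. So were the Max peak at the outermost TSS of Cbx7 and the intronic Bio-Myc peak of Cbx7. Leaving out genes on chromosome 8, chosen after the data were examined, gave 7 and 16 of the further subunits. No paired analysis was possible because each ChIP has 1 library and the labels give no replicate numbers. Peaks below the limit are not listed, so a gene without a peak was not called at this depth, which is unknown.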

Other observations

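Among the further PRC1 subunits, high Max scores came with widely different Bio-Myc values. Hdac2, E2f6 and Skp1a had Max scores of 1601, 964 and 710 and no Bio-Myc peak within 1 kb. Tfdp1, Cbx3 and Mga, the other further subunits with a Max score of at least 700, did have a Bio-Myc peak. Over all protein-coding genes, 71.3% of the 428 with a Max score of at least 700 had a Bio-Myc peak. Mga, which encodes a Max partner, had a Max score of 904 with a Bio-Myc score of 101. Their ratio of 8.92 was above 99% of overlapping promoter pairs. L3mbtl2 lay on the other side, with a Bio-Myc score of 173, a Max score of 130 and a ratio of 0.751, above 10.9% of pairs. The genes were picked after their values were seen, each value is from 1 library, and none of these differences was tested.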
